A study of Drosophila melanogaster with 18 samples.

Results

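The Turandot genes of *Drosophila melanogaster* were followed here in fly heads from 3 temperatures, with flies held either at 18°C, at 25°C or at 29°C. The members were taken by gene symbol from the deposited expression table: *TotA*, *TotB*, *TotC*, *TotM*, *TotX* and *TotZ*, 6 genes of 15334 with a row in the table. Flies were of the wild-type strain Canton-S, carried no added allele or agent, and were entrained to light-dark cycles at their temperature before collection. RNA from whole heads was sequenced from its polyadenylated 3′ end at ZT3, ZT7, ZT11, ZT15, ZT19 and ZT23, where ZT is the time in hours after lights on, with 1 library for each temperature and time. The 6 libraries of a temperature therefore served as its replicates (18 in all), and the p-values measure the spread between these libraries, which joins time of day with any difference between collections. The age and sex of the flies were not given in the sources used here for these libraries, and some labels put the fifth time point at 18 h while others put it at 19 h.

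Turandot genes encode small secreted proteins that the fat body, the insect counterpart of liver and adipose tissue, releases into the hemolymph. *TotA*, the best studied of them, is known as a late stress gene that responds to bacterial infection, heat, wounding and other insults. Its induction is known to need the JAK/STAT pathway, in which Unpaired ligands act through the receptor Domeless, the kinase Hopscotch and the transcription factor Stat92E, together with input from the Imd pathway and the kinase Mekk1. The molecular role of most of the other members is less well known, although *TotM* has also been linked to infection and to mating.

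Of the 6 genes, 4 were detected throughout. *TotA*, *TotC* and *TotM* had signal in 18 of 18 libraries and reached a value of 10 in each of them, and *TotX* reached it in 17. Signal here is the deposited value, a read number divided by 1 constant per library, in which a single read was worth between 0.515 and 2.45. These 4 genes were among the 8846 rows tested, those that reached 10 in 6 or more libraries. *TotB* was above 0 in 6 libraries and never reached 10, and *TotZ* was listed at 0 in 18 of 18 libraries, where a count of 0 allows up to 1.54 to 7.36 signal depending on the library (3 reads, counting error only). *TotF* and *Victoria*, the other family members that have a row, were also listed at 0 throughout.

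The genes differ in where they lie. *TotA*, *TotC*, *TotB* and *TotZ* stand in this order on the forward strand of chromosome arm 3R within 7328 bp, in the dm3 build that the deposited table uses. *TotA* spans 3R 16696758 to 16697422, *TotC* 16698710 to 16699302, *TotB* 16699660 to 16700244 and *TotZ* 16703458 to 16704085. The gaps between them measure 1287, 357 and 3213 bp. *TotX* lies 26553 bp beyond *TotZ* on the reverse strand, at 16730639 to 16731240, inside the span of *CG5621* on the forward strand (16727678 to 16733985). *CG5621* averaged less signal than *TotX* at each temperature (9.66, 18.8 and 15.8, coolest first), so reads of *TotX* were not all counted for it. Whether reads of *CG5621* were counted for *TotX* cannot be told, as the use of strand in counting is not stated. *TotM* lies alone on arm 2L, at 5329857 to 5330464 on the forward strand, where 2 transcript rows with the same values were counted once. How reads that match more than 1 Turandot gene were assigned is not given in the sources used here.

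The libraries held an estimated 1.24 to 6.62 M reads (median 3.11 M). The 25°C ZT15 library was the shallowest and stood apart from the rest, at 71.2 on the second principal component against -24.6 to 7.11 for the others, and the 29°C ZT23 library was the deepest. Photoreceptor marker genes took 1.34 to 3.58% of the signal, as heads should hold them. Yolk protein genes, which the fat body of females transcribes, took 3.19 to 18.3%.

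*TotA* and *TotC* were lower in warm heads, while *TotM* and *TotX* did not pass the test. At 29°C, *TotA* and *TotC* were 5.17-fold and 5.20-fold lower than at 18°C in the fit over all rows, which placed them 49th and 48th lowest of 8846 rows by log2 change. Of the 4 tested members, 2 fell at 29°C against 18°C and none rose, where 23.1% of all rows passed the test in either direction with 10.5% higher and 12.6% lower. Both fell by at least 4-fold in the fit with an adjusted p under 0.05, as 0.893% of all rows did. The 95% intervals of their log2 changes reached -1.56 for *TotA* and -1.39 for *TotC*, short of 4-fold. As ratios of mean signal the falls were 4.65-fold and 3.69-fold. The 25°C libraries lay between in their means for *TotA*, *TotC* and *TotM*.

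**Figure D1:**
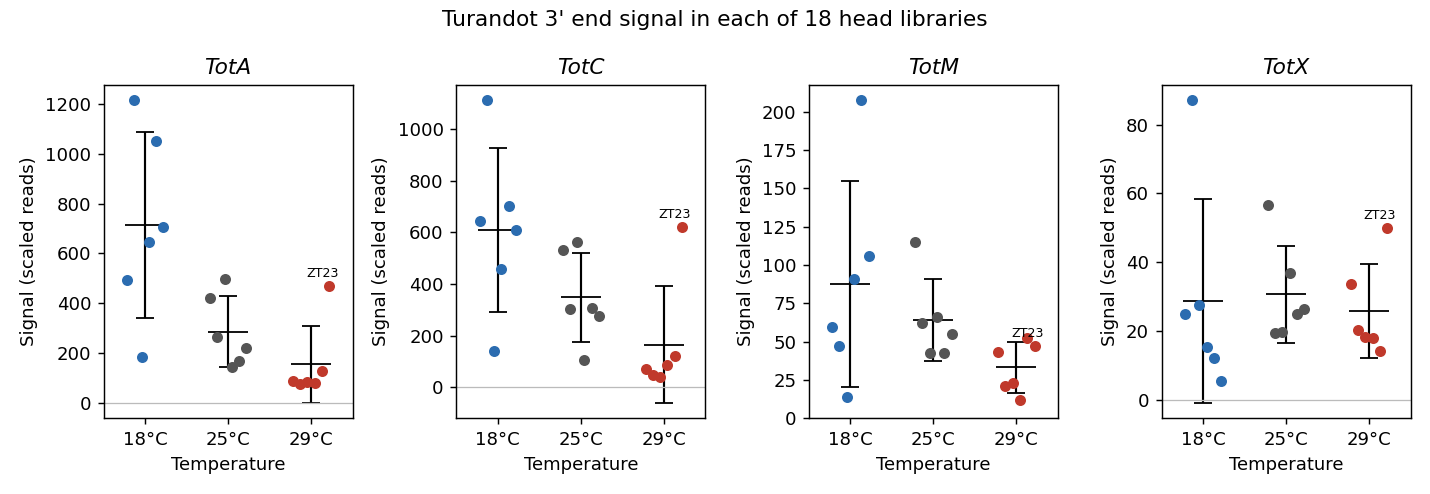
Signal (reads scaled per library, linear axis) of *TotA*, *TotC*, *TotM* and *TotX* in heads at each temperature. Each point is 1 library, ordered from ZT3 on the left to ZT23 on the right within a temperature, with the mean and SD as bars (n = 6). The 29°C ZT23 library stands at 469.2 for *TotA* and 622.6 for *TotC*, above the other 5 libraries of 29°C.

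*TotA* ranged from 183.2 to 1216 signal at 18°C (median 674.8), from 144.7 to 498.5 at 25°C (median 240.1) and from 74.6 to 469.2 at 29°C (median 85.9). Its means were 715 ± 374, 285 ± 143 and 154 ± 156 (SD, n = 6 each, with the coolest group first). At 29°C, 5 of the 6 libraries lay between 74.6 and 127.9, below every library of 18°C and 25°C, and only ZT23 overlapped the cooler groups. The log2 change at 29°C against 18°C was -2.37 ± 0.39 (SE; limma, adjusted p = 3.6e-05; two-sided exact permutation p = 0.00433), and *TotA* was lower at 29°C at 6 of 6 time points. As a ratio the gap was widest at ZT7, where *TotA* had 74.6 signal at 29°C and 1216 at 18°C, and narrowest at ZT23, where it had 469.2 and 705.1.

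*TotC*, a paralog of *TotA* about which less is known, had a similar profile. It ranged from 141.1 to 1112 signal at 18°C (median 626.0), from 107.9 to 563.7 at 25°C (median 304.9) and from 41.3 to 622.6 at 29°C (median 79.0). Its means were 611 ± 318, 349 ± 171 and 165 ± 226 (SD, n = 6 each, again coolest first). The 29°C libraries other than ZT23 lay between 41.3 and 123.4, below all of 18°C and overlapping 25°C only through its ZT15 library. The log2 change at 29°C against 18°C was -2.38 ± 0.48 (SE; limma, adjusted p = 0.000422; exact permutation p = 0.0108), and *TotC* was lower at 29°C at 5 of 6 time points, ZT23 being the exception (622.6 signal at 29°C and 608.9 at 18°C).

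*TotM* had the same sign without passing the test. It ranged from 13.7 to 207.6 signal at 18°C (median 75.3), from 42.5 to 115.2 at 25°C (median 58.5) and from 11.9 to 52.5 at 29°C (median 33.2), so that all the groups overlapped. Its means were 87.5 ± 67.3, 64.0 ± 26.9 and 33.3 ± 16.5 (SD, n = 6 each, with the coolest group first). The log2 change at 29°C against 18°C was -1.13 ± 0.43 (limma, adjusted p = 0.0568; exact permutation p = 0.0931). The 18°C ZT11 library weighed most on this call: it held 13.7 signal, the lowest of its group, and without it the change was -1.57 with an adjusted p of 0.00173 in limma. The call was also made without 29°C ZT3, ZT19 or ZT23 (adjusted p = 0.0485, 0.0396 and 0.0449).

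*TotX* was the one tested member whose means lay close together. It ranged from 5.50 to 87.2 signal at 18°C (median 20.1), from 19.5 to 56.5 at 25°C (median 25.7) and from 14.0 to 49.95 at 29°C (median 19.2). Its means were 28.7 ± 29.8, 30.6 ± 14.2 and 25.7 ± 13.7 (SD, n = 6 each, again coolest first), and the groups overlapped almost wholly. At 29°C against 18°C the log2 change was 0.20 ± 0.45 (limma, adjusted p = 0.811), with a 95% interval of -0.72 to 1.11, which does not reach the changes of *TotA* and *TotC*. Its sign turned when 18°C ZT23 or 29°C ZT23 was left out (-0.14 and -0.02). The overlapping gene *CG5621* averaged 15.8 signal at 29°C and 9.66 at 18°C, and did not pass the test either (limma, adjusted p = 0.598).

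At 18°C against 25°C, 1 of the 4 tested members was higher and none was lower, where 10.8% of all rows passed in either direction, with 6.68% higher and 4.16% lower. This was *TotA*, with a log2 change of 1.25 ± 0.39 (limma, adjusted p = 0.0391; exact permutation p = 0.0346), higher at 18°C at 5 of 6 time points. At ZT11 the order was the other way, with 183.2 signal at 18°C and 498.5 at 25°C. This call was a narrow one: it was lost when any one of ZT7, ZT15, ZT19 and ZT23 of 18°C, or of ZT7, ZT15, ZT19 and ZT23 of 25°C, was left out (adjusted p = 0.0577 to 0.105 over these 8 libraries). *TotC* had 0.76 ± 0.48 (adjusted p = 0.354), *TotM* 0.12 ± 0.43 (adjusted p = 0.904) and *TotX* -0.48 ± 0.45 (adjusted p = 0.568, all limma). The sign of the *TotM* change was not stable, at -0.20 without 18°C ZT19 and -0.01 without 18°C ZT23.

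At 29°C against 25°C, 0 of the 4 tested members passed in limma, against 2.06% of all rows (0.814% higher and 1.24% lower). *TotA*, *TotC* and *TotM*, 3 of the 4, had an unadjusted limma p under 0.05. By that p they ranked 483rd, 269th and 880th of 8846 rows, so many other rows had one as low. The log2 changes were -1.13 ± 0.39 for *TotA* (adjusted p = 0.148; exact permutation p = 0.0563), -1.62 ± 0.48 for *TotC* (adjusted p = 0.0724; exact permutation p = 0.0411), -1.01 ± 0.43 for *TotM* (adjusted p = 0.265; exact permutation p = 0.0281) and -0.28 ± 0.45 for *TotX* (adjusted p = 0.834). *TotA*, *TotC* and *TotM* were each lower at 29°C at 5 of 6 time points. These limma results turned on single libraries. Without 29°C ZT23, *TotA* passed at -1.52 (adjusted p = 0.0199) and *TotC* at -2.15 (adjusted p = 0.00404), and *TotC* also passed without 25°C ZT15 (-1.92, adjusted p = 0.0333) or without 18°C ZT11 (-1.62, adjusted p = 0.0372). The 2 comparisons against 25°C share the 25°C libraries, and the 3 comparisons together are not independent.

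**Figure D2:**
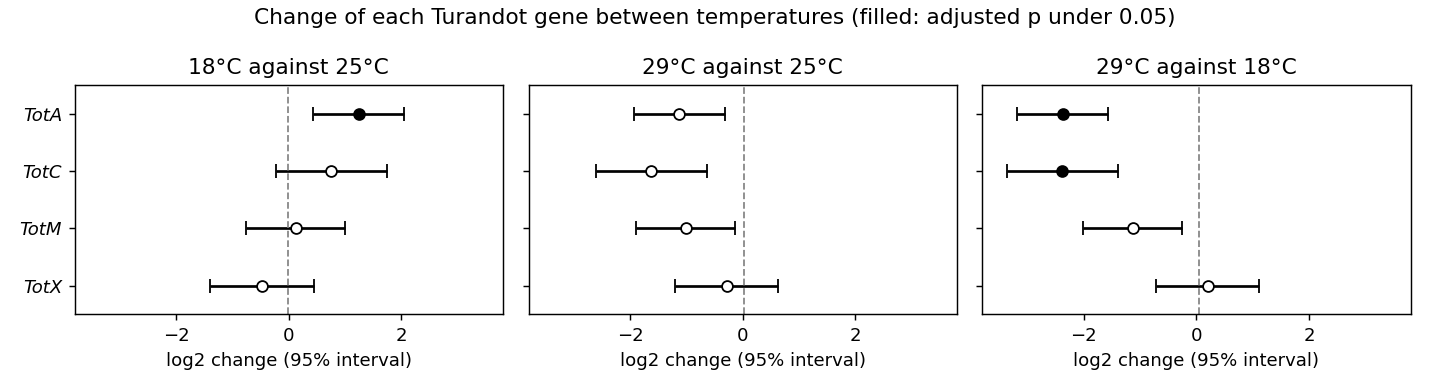
Log2 change of *TotA*, *TotC*, *TotM* and *TotX* for 18°C against 25°C, 29°C against 25°C and 29°C against 18°C, from limma, with 95% intervals. Filled points passed the adjusted threshold, and the dashed line is the median change of all tested rows; *TotA* and *TotC* lie at -2.37 and -2.38 in the comparison of 29°C with 18°C.

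Whether the members differed from one another in their temperature change was tested for each pair and comparison, 18 tests in all. None passed after adjustment over the 18, and 4 had an unadjusted p under 0.05. The lowest values were those of *TotA* against *TotX* and of *TotC* against *TotX* at 29°C against 18°C, with differences in log2 change of -2.57 (exact permutation p = 0.00649, adjusted p = 0.0779) and -2.58 (exact permutation p = 0.00866, adjusted p = 0.0779). *TotA* and *TotC* differed by 0.01 in that comparison (exact permutation p = 0.989).

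The 29°C ZT23 library stood out. *TotC* was 8.41 times the mean of the other 5 libraries of 29°C there (622.6 against 74.0 ± 33.1 signal), and *TotA* 5.18 times (469.2 against 90.6 ± 21.5; SD, n = 5). Ranked by this ratio after adding 1 to each value, *TotC* came first and *TotA* 3rd of 8846 rows, with *TotX* 50th and *TotM* 469th. These ranks describe a single library, chosen after its values were seen. *TotB* reached its highest value in the same library, 8.24 signal or 16 reads (95% Poisson interval 4.71 to 13.4 signal), whereas the other 5 libraries of 29°C were at 0. Outside this library *TotB* exceeded the worth of 3 reads only at 18°C ZT19, with 4 reads. Its comparisons between temperatures gave exact permutation p-values of 0.773 (18°C against 25°C), 0.848 (29°C against 25°C) and 1 (29°C against 18°C), and at this depth no difference was detectable.

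Fat body genes moved in that library too. Of 8 fat body marker rows, 7 had their highest 29°C value at ZT23, against 15.7% of all tested rows. These included *Lsp2*, a storage protein, *fit*, a secreted fat body peptide, and the 3 yolk protein rows, which also mark females. The row that did not was *Apoltp*, highest at ZT19. *Lsp2* was 3.49 times and *fit* 3.58 times the mean of the other 29°C libraries, by the same ratio. The antimicrobial peptide genes, which the fat body makes on infection, had their highest 29°C value at ZT23 in 0 of 11 rows. The JAK/STAT pathway genes had it there in 4 of 16, all rows of *vir-1* or *Su(var)2-10*. Heat shock genes had it there in 4 of 9 rows, hemocyte markers in 2 of 3 and photoreceptor markers in 3 of 7. Stress MAP kinase genes had 2 of 10, Imd genes 1 of 14, Toll genes 0 of 12 and *roX* RNAs 1 of 2. Neuron, glia and muscle markers had 0 of 6, 0 of 4 and 0 of 5. The part of these lists in the Turandot values was not tested.

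Time of day left no call among the members. In a model with 1 rhythm of 24 h common to the temperatures, 0 of the 4 tested members passed in limma. Of all rows, 0.497% did. *TotM* and *TotC*, 2 of the 4, had an unadjusted p under 0.05, and the share of all rows at that level was not counted. *TotM* had a fitted peak-to-trough size of 1.49 on the log2 scale with its peak at 22.6 h (adjusted p = 0.263), and *TotC* 1.503 with its peak at 23.9 h (adjusted p = 0.395). *TotA* (0.89, adjusted p = 0.688) and *TotX* (0.99, adjusted p = 0.721) had larger p-values. With 1 library per time and temperature, a rhythm and the state of a single collection cannot be told apart.

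**Figure D3:**
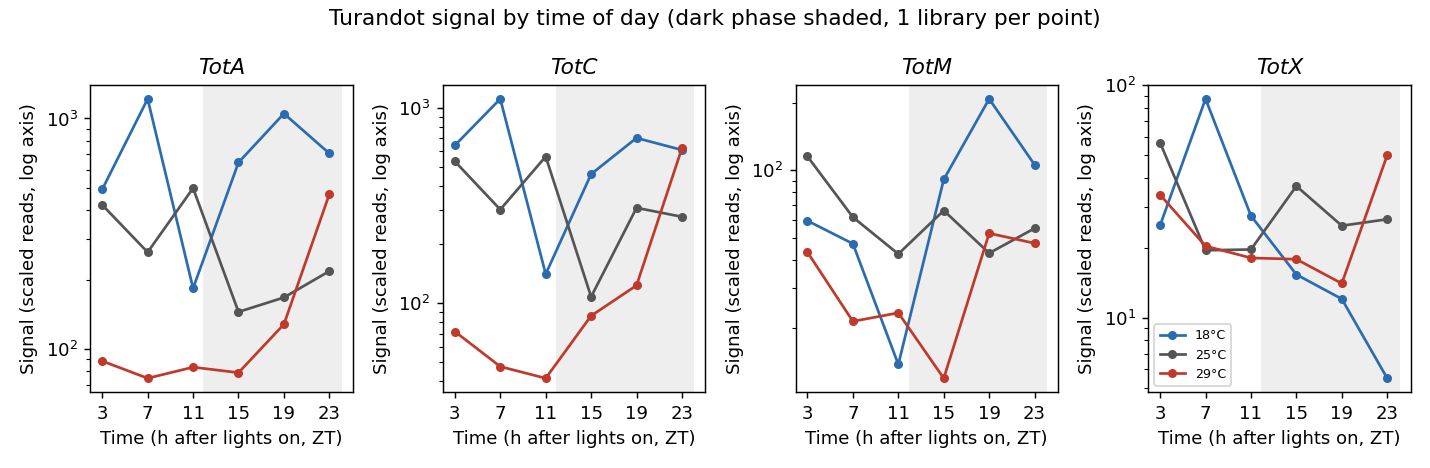
Signal (reads scaled per library, log axis) of the 4 detected members by time in hours after lights on, with 1 library per point and the dark phase shaded. At 29°C *TotA* stays between 74.6 and 127.9 until ZT19 and reaches 469.2 at ZT23, and at 18°C *TotA*, *TotC* and *TotM* have their lowest value at ZT11.

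*TotA* and *TotC* followed each other from library to library. Over the 18 libraries the log2 values correlated with Pearson r = 0.948 and Spearman rho = 0.934 (permutation p = 1e-05 for each, the smallest the permutations can give; adjusted over 6 pairs, 6e-05), and r was 0.946 without the 2 libraries farthest from the median. For each pair of members these permutations exchanged libraries between temperatures, so the p-values over 18 libraries also reflect temperature differences that both genes share. As deviations from the temperature means, r of *TotA* and *TotC* was 0.929. The 18°C libraries alone gave r = 0.939, the 25°C libraries 0.875 and the 29°C libraries 0.963 (exact permutation p = 0.0139 each). Both had their lowest and highest libraries at the same times at 18°C (ZT11 and ZT7) and at 25°C (ZT15, the shallowest library, and ZT11). At 29°C both were highest at ZT23, but *TotA* was lowest at ZT7 and *TotC* at ZT11. The ratio of *TotC* to *TotA* signal, neither scaled to length, averaged 0.872 ± 0.232 in 18°C heads, 1.23 ± 0.35 in 25°C heads and 0.888 ± 0.305 in 29°C heads (SD, n = 6 each).

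Over the 18 libraries *TotM* had lower correlations with them, and *TotX* had lower ones still. *TotM* correlated with *TotA* at r = 0.684 and rho = 0.606 (permutation p = 0.00135 and 0.00937; adjusted p for r over 6 pairs, 0.00405; r = 0.691 without the 2 farthest), but within temperatures r was 0.764, 0.217 and 0.581, coolest first, and no exact permutation p within a temperature was under 0.0972. With *TotC* its r was 0.638 and its rho 0.525 (permutation p = 0.0043 and 0.0272; adjusted p for r, 0.0086; r = 0.547 without the 2 farthest), and within temperatures r was 0.661, 0.050 and 0.509 in the same order. For *TotX* against *TotA*, *TotC* and *TotM*, r over the 18 libraries was 0.060, 0.142 and -0.138 (rho -0.013, 0.092 and -0.125; permutation p for r 0.814, 0.576 and 0.585; r = -0.101, 0.083 and -0.087 without the 2 farthest). Within temperatures, coolest first, *TotX* had r = 0.047, 0.013 and 0.699 with *TotA* and r = 0.145, -0.080 and 0.659 with *TotC*. With *TotM* it had r = -0.538, 0.852 and 0.407, and the value at 25°C had the lowest unadjusted exact permutation p of these, 0.0375 (rho 0.657).

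The rows whose pattern was most like that of *TotA* after *TotC* were those of yolk protein genes. Over the 18 libraries, *Yp1*, *Yp2* and *Yp3* had r = 0.916, 0.910 and 0.903 with *TotA*, and *CG2233* had 0.908. For *TotC* the closest after *TotA* were *Yp1* (0.861), *Yp2* (0.847), *BM-40-SPARC*, which encodes a matrix protein (0.846), and *Yp3* (0.834). The list for *TotM* was another one: *Cyp4e2* (0.822), *to*, the feeding and clock output gene takeout (0.771), *CG16799* (0.764), *CG8353* (0.745) and *CG7724* (0.740). *TotX* was closest to *CG14795* (0.759), *RpLP0-like* (0.758), *UbcD6* (0.749), *CG8726* (0.743) and *phl* (0.740). These likenesses are descriptions over 18 libraries that share their scaling and their temperature groups.

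The yolk protein genes themselves fell at the warmer temperatures. *Yp1*, *Yp2* and *Yp3* together took 9.06 to 18.3% of the signal at 18°C, 4.76 to 8.57% at 25°C and 3.19 to 5.78% at 29°C. Among the 8 fat body marker rows, 6 fell at 29°C against 18°C (median log2 change -1.73), 2 fell at 29°C against 25°C and 6 rose at 18°C against 25°C. Of all rows, 12.6%, 1.24% and 6.68% did so, in the same order. *to* and *Apoltp* did not pass at 29°C against 18°C (log2 change -0.62 and -0.003, adjusted p = 0.310 and 0.993, limma). The summed level of the list took 3.43 to 6.18% at 29°C against 9.79 to 19.4% at 18°C. No fat body marker with a row was at 0 in every library. The male-enriched RNAs *roX1* and *roX2*, which coat the male X chromosome, both rose at 29°C against 18°C, and together ranged from 2811 to 3743 signal at 29°C and from 647.4 to 3346 at 18°C. Muscle markers fell in 4 of 5 rows and photoreceptor markers rose in 5 of 7 at 29°C against 18°C, where 12.6% of all rows fell and 10.5% rose. In whole heads, fewer cells of a type and less RNA per cell cannot be told apart, and neither can a lower share of females from less yolk protein RNA per female. The part of these lists in the Turandot changes was not tested, and the ratio below does not test it.

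In every temperature the library with the least *TotA* was also the one with the least yolk protein signal, and the library with the most *TotA* had the most. These were ZT11 and ZT7 at 18°C, ZT15 and ZT11 at 25°C, and ZT7 and ZT23 at 29°C. Within temperatures, coolest first, r with the summed yolk protein signal was 0.889, 0.734 and 0.806 for *TotA* (rho 0.943, 1 and 0.486) and 0.776, 0.933 and 0.800 for *TotC* (rho 0.714, 0.829 and 0.543). Without the 2 libraries farthest from the median r was 0.676, 0.974 and -0.01 for *TotA* and 0.795, 0.761 and 0.040 for *TotC*, so the 29°C relations rested on 2 libraries. The yolk protein genes had been named for their likeness to *TotA* and *TotC* over these same libraries, and these values are therefore given as a description, with no test. They belong to 24 such relations computed for the 4 members with yolk protein and *roX* signal. With *roX* signal, coolest first, r was -0.15, 0.18 and -0.25 for *TotA* (rho -0.371, -0.029 and -0.886). Without the 2 libraries farthest from the median r was -0.894, 0.581 and -0.995, each over few libraries. Among the *roX* relations the most extreme rank order was that of *TotM* at 29°C (r = -0.67, rho -1).

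**Figure D4:**
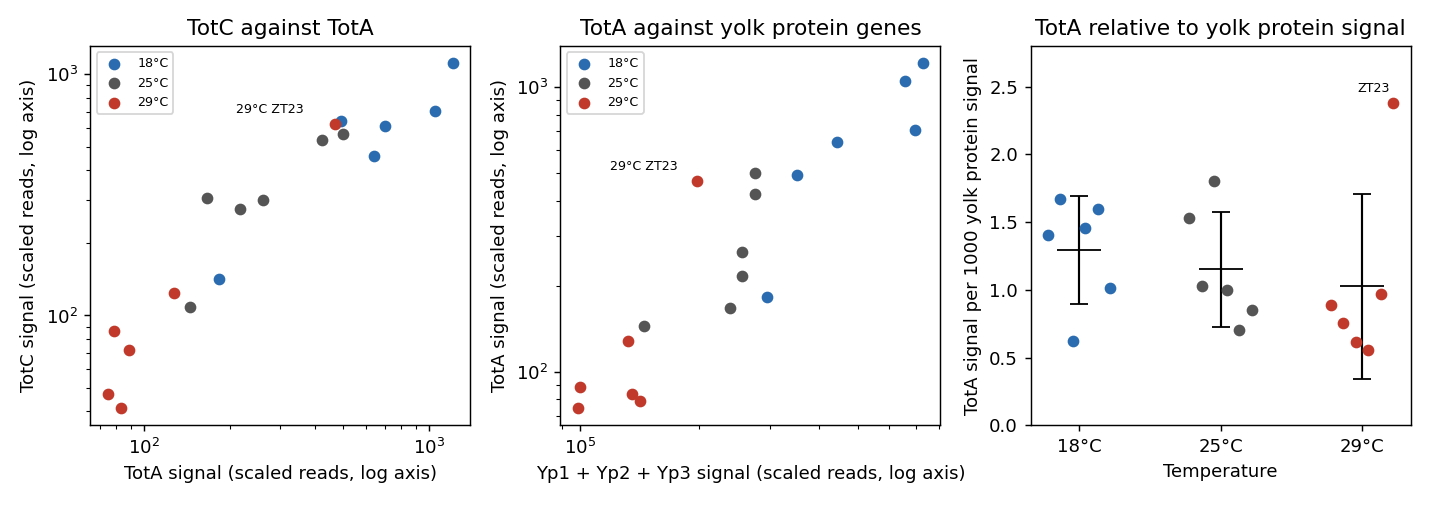
Left, *TotC* against *TotA* signal, and middle, *TotA* against the summed signal of *Yp1*, *Yp2* and *Yp3* (log axes, 1 point per library); right, *TotA* per 1000 yolk protein signal by temperature with mean and SD (n = 6). The 29°C ZT23 library is at 2.38 on the right, above the other 5 libraries of 29°C at 0.555 to 0.965.

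Set against yolk protein signal in the same library, a measure added after the likeness was seen and so not independent of it, the difference in *TotA* was smaller. *TotA* per 1000 yolk protein signal averaged 1.29 ± 0.40 in 18°C heads, 1.15 ± 0.42 in 25°C heads and 1.03 ± 0.68 in 29°C heads (SD, n = 6 each), and the log2 difference at 29°C against 18°C was -0.45 (exact permutation p = 0.247; adjusted over the 12 tests of this kind, 0.423). This value depended on 29°C ZT23: without it the 29°C mean was 0.755 ± 0.174 and the difference -0.73 (exact permutation p = 0.0281). *TotC* per 1000 yolk protein signal was 1.03 ± 1.06 at 29°C and 1.13 ± 0.48 at 18°C, a log2 difference of -0.46 (exact permutation p = 0.418), and -0.88 without 29°C ZT23 (exact permutation p = 0.0606). *TotX* had the opposite sign on this scale, with 0.194 ± 0.090 at 29°C and 0.0574 ± 0.0443 at 18°C (log2 difference 2.16, exact permutation p = 0.00433, adjusted p = 0.0519). *TotM* had 0.257 ± 0.134 at 29°C and 0.159 ± 0.098 at 18°C (log2 difference 0.78, exact permutation p = 0.186). The yolk protein genes that form the divisor fell at 29°C against 18°C (log2 change -1.21, -2.24 and -2.43 for *Yp1*, *Yp2* and *Yp3*). Undivided, *TotX* changed by 0.20 and *TotM* by -1.13. The higher ratios of *TotX* and *TotM* thus reflect the divisor, and their p-values do not test a rise of either gene. The same divisor makes the *TotA* and *TotC* differences smaller. Their p-values on this scale do not test whether yolk protein level accounts for their falls. At 29°C ZT23 itself *TotC* reached 3.16 per 1000, against 0.305 to 0.932 in the other libraries of 29°C.

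In the JAK/STAT list no row passed the adjusted threshold as lower at 29°C against 18°C, where 12.6% of all rows did. With so few rows, that absence cannot be told from the share over all rows. Of the 16 tested rows of 11 JAK/STAT genes, 4 passed as higher, where 10.5% of all rows did. The median log2 change was 0.48 against 0.05 over all rows. These were 3 rows of *vir-1*, a virus-induced gene known as a pathway target (log2 changes 0.44, 0.47 and 0.49; adjusted p up to 0.00189), and *Socs36E*, a feedback inhibitor and target of the pathway, at 70.6 ± 26.6 signal at 29°C and 42.3 ± 18.9 at 18°C (log2 change 0.78, adjusted p = 0.0369, limma). The rows of *vir-1* belong to 1 gene and are not separate evidence. No row of the list passed in limma in the comparisons with 25°C (lowest adjusted p = 0.103 at 18°C and 0.361 at 29°C), where 10.8% and 2.06% of all rows did. An unadjusted p under 0.05 was found for 5 rows at 18°C and 0 at 29°C. The share of all rows at that level was not counted. The ligand genes *os*, *upd2* and *upd3* were listed at 0 in all libraries.

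Among the other inputs, 1 of 14 Imd rows, 1 of 12 Toll rows and 3 of 10 stress MAP kinase rows passed at 29°C against 18°C, where 23.1% of all rows did. In the Imd list, *Iap2*, a ubiquitin ligase of the pathway, rose at 29°C against 18°C (log2 change 0.83, adjusted p = 4.08e-06) and fell at 18°C against 25°C (-0.60, adjusted p = 0.000736). In the stress MAP kinase list, *Mekk1*, the kinase needed for *TotA* induction, rose at 29°C against 18°C (0.74, adjusted p = 0.0423), as did *Atf-2*, a transcription factor downstream of p38 (0.77, adjusted p = 0.0352), while *bsk*, which encodes JNK, fell (-0.62, adjusted p = 0.00787). In the Toll list, *SPE*, the protease that activates the ligand Spätzle, fell (-0.47, adjusted p = 0.00116; all limma).

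Of 9 heat shock rows, 5 rose at 29°C against 18°C and none fell, where 10.5% of all rows were higher. Those with the lowest adjusted p were *DnaJ-1* (0.96, adjusted p = 0.000159), *Hsp22* (1.55, adjusted p = 0.000449), *Hsp60* (0.47, adjusted p = 0.000546) and *Hsp23* (1.63, adjusted p = 0.00507). *Hsp22* was the 1 row of the 9 that rose at 29°C against 25°C (1.33, adjusted p = 0.0185), where 0.814% of all rows did. Of 11 antimicrobial peptide rows, 1 passed in each comparison. Of all rows, 10.8% passed at 18°C against 25°C, 2.06% at 29°C against 25°C and 23.1% at 29°C against 18°C. With so few rows, these counts cannot be told from those shares. *Drs*, which encodes the antifungal peptide drosomycin, fell at 29°C against 18°C (-0.79, adjusted p = 0.000105) and against 25°C (-0.61, adjusted p = 0.0179), and *AttB*, an attacin, fell at 18°C against 25°C (-0.87, adjusted p = 0.0404; all limma). The differences between these lists and the Turandot genes were not themselves tested. Hemocyte marker rows did not pass in any comparison (0 of 3 rows in limma, lowest adjusted p = 0.0663; 1 row with an unadjusted p under 0.05, at 18°C against 25°C). They are too few to tell this from the shares of all rows given above.

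Of the neighbours of the cluster, 1 passed the test. Among the other genes within 30 kb of *TotA* and *TotX* that were tested, only *RpS30*, a ribosomal protein gene, passed at 29°C against 18°C. It was higher (log2 change 0.48, adjusted p = 0.000129). Of all rows, 23.1% passed in this comparison. The remaining tested neighbours were *CG15695*, *CG3822*, *CG10830*, *CG5621* and *hdly*, too few to tell their share of calls from that of all rows. *CG10830*, which lies between *TotZ* and *TotX*, averaged 61.2 signal at 29°C and 56.9 at 18°C (adjusted p = 0.725), and *CG3822*, on the other side of *TotA*, 20.9 and 24.5 (adjusted p = 0.765, all limma).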

How the data were processed

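Heads of Canton-S flies were profiled by 3′ RNA-seq in 18 libraries, 6 per temperature. The authors deposited 1 table of signal, read numbers divided by 1 constant per library; the submitters' processing notes name dm3, Bowtie2, TopHat and Cufflinks, and the counting rule and the source of the constants are not given in the sources used here. Of the nonzero values, 97.0 to 97.7% were whole multiples of 1 read (tolerance 0.01). Because the deposited values are a scaled signal and not counts, no count test was run. Of 29561 rows, 667 had no values. Repeats of a gene's row were dropped where identical and merged where they differed by under 10%, and 8846 rows of 8200 genes with at least 10 in at least 6 libraries were tested. Values were tested as log2(value + 1), a scale that understates changes of low genes, with limma 3.58.1 (R 4.3.3; 3 temperature means, intensity trend, Benjamini-Hochberg over all rows, threshold 0.05), which was tested on simulated data. Exact permutation tests were two-sided over 924 arrangements of 6 against 6 libraries (smallest p 0.00216). Groups came from the temperature labels.

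The members and gene lists were chosen with earlier results of these data known. All members were named. From each list genes past the threshold were named, at most the 4 with the lowest adjusted p, and for each tested member the 5 rows of highest correlation. Ligands and neighbours outside this rule were named after their values were seen. Alternatives covered pseudocounts, filters, scaling, the intensity trend, repeated rows, a replicate block by time point, the fifth time point at 18 h and leaving out each library. No sequence was printed. Intervals cover counting error only.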

Additional observations from a re-analysis of the deposited data

Results flagged for a closer look

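Within a temperature, 6 of 15 groups of a Turandot gene (6 libraries each) had a highest library set apart from the rest, by a gap whose share of the group's range was past Dixon's 95% critical value; chance gives about 1 in 20 groups where values are normally distributed, which was not checked for this signal and cannot hold for *TotB*, whose libraries are mostly at 0. At 29°C ZT23, *TotA* had 469.2 signal and the other libraries 74.6 to 127.9 (gap 0.865 of the range), *TotC* had 622.6 and the others 41.3 to 123.4 (0.859), and *TotB* had 8.24 and the others 0 (gap 1). These 3 flags come from 1 library and are not independent. *TotB* at 18°C ZT19 had 3.71 signal and the others 0 to 1.02 (0.724), a matter of 4 reads. *TotM* at 25°C ZT3 had 115.2 signal and the others 42.5 to 66.2 (0.673). *TotX* at 18°C ZT7 had 87.2 signal and the others 5.50 to 27.4 (0.732).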

How the results depend on the processing

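The falls of *TotA* and *TotC* at 29°C against 18°C passed in 29 of 29 alternatives (limma, adjusted p up to 0.0021 and 0.00853). *TotA* at 18°C against 25°C passed in 17 of 29, and the count of members called there was 0 with no filter, with library size alone, with no intensity trend and without ZT15 (adjusted p = 0.110, 0.0588, 0.134 and 0.132), and 0 to 1 with each library left out. At 29°C against 25°C the count was 2 without ZT23, and 0 to 2 with each library left out. Time points did not pair the libraries (2 of 18 correlations of deviations over 0.1, range -0.05 to 0.11; 5 libraries correlated best with their own time); with time point as a replicate block 1 member passed at 29°C against 25°C (*TotC*, adjusted p = 0.0401), *TotM* passed at 29°C against 18°C (0.0254), and the rows called were 1032 at 18°C against 25°C, 237 at 29°C against 25°C and 2120 at 29°C against 18°C. *TotM* at 29°C against 18°C also passed with pseudocount 5 (0.0450) and with 10 in every library (0.0446). The *TotM* change at 18°C against 25°C reversed with library size alone (-0.046) and without ZT23 (-0.036), and ranged from -0.20 to 0.56 with each library left out, -0.01 among them; the *TotX* change at 29°C against 18°C reversed without ZT23 (-0.36) and ranged from -0.14 to 0.61, -0.02 among them. Rows called were 2044, 332 and 4263 with every repeat kept (18°C against 25°C, 29°C against 25°C, 29°C against 18°C), and at 29°C against 25°C 36 with no trend, 49 without ZT15 and 111 to 211 with each library left out. Rhythmic rows numbered 23 with no filter, 4 with no trend, 93 with repeats, 24 without ZT15, 17 without ZT23 and 26 to 58 with each library left out. Library size alone moved the median change of all rows to -0.18, 0.04 and 0.24, and the share of calls that were higher to 25.7, 57.5 and 69.1%, against 61.6, 39.6 and 45.4%. Leaving out ZT15 or ZT23 at each temperature was added after seeing the data. Apart from the number of samples where libraries were left out, the cause was not tested. *TotX*, with as few as 4 reads in a library, is limited by depth.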
